A study of Mus musculus with 6 samples.

Results

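Dopaminergic neurons of the mouse hypothalamus were examined in nucSeq data, in which the RNA of single nuclei is captured in droplets and counted as unique molecular identifiers (UMIs), tags that mark single captured RNA molecules. They were selected on their own counts. A nucleus was taken as dopaminergic when it held at least 1000 UMIs, at least 2 UMIs of the neuronal genes *Snap25*, *Syt1* and *Rbfox3* together, at least 2 UMIs of *Th*, at least 1 UMI of the transporter genes *Slc6a3* and *Slc18a2* together, fewer than 2 UMIs of *Hdc* and fewer than 2 of *Ghrh*. The last 2 genes mark histaminergic neurons and neurons that make growth-hormone-releasing hormone. The rule found 94 nuclei among 34707 neurons, which is 0.271% (95% exact binomial interval 0.219 to 0.331%), in a total of 39665 nuclei with at least 1000 UMIs and 39953 barcodes. All mice were male wild-type C57Bl/6 mice aged 6 to 8 weeks. The ad-libitum-fed group held 12 mice with free access to chow, in 2 pools of 6 that were made on separate days, and the fasted group held 6 mice without food for 16 h overnight, in 1 pool. Hypothalami were dissected whole, so a nucleus carries neither its region nor its mouse. Single DRAQ5-stained nuclei of each pool were sorted into 2 tubes, and every tube became 1 library on the 10x v3 platform. It is not stated which of the 4 ad-libitum-fed libraries belong to the same pool. The 6 libraries held 39556605, 31757655, 59083864 and 59940795 UMIs (ad-libitum-fed 1 to 4) and 36177621 and 35567902 UMIs (fasted 1 and 2), and gave 5, 5, 29, 31, 14 and 10 dopaminergic nuclei. Summed over these nuclei the depth was only 29963 and 26904 UMIs in ad-libitum-fed libraries 1 and 2, against 327100 and 383192 in libraries 3 and 4 and 123850 and 84665 in the fasted libraries. A single UMI was therefore worth 33.4, 37.2, 3.06 and 2.61 CPM in ad-libitum-fed libraries 1 to 4, and 8.07 and 11.8 CPM in fasted libraries 1 and 2, where CPM are counts scaled to the same total for these nuclei in each library.

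Dopamine is made from tyrosine by tyrosine hydroxylase, encoded by *Th*, which forms L-DOPA, and by aromatic L-amino acid decarboxylase, encoded by *Ddc*, which turns L-DOPA into dopamine. The vesicular monoamine transporter, encoded by *Slc18a2*, loads dopamine into vesicles, and the plasma membrane dopamine transporter, encoded by *Slc6a3*, takes it up again after release. In the hypothalamus the best-known dopaminergic neurons are the tuberoinfundibular neurons of the arcuate nucleus, which fire rhythmically, release dopamine into the pituitary portal blood, restrain prolactin secretion from the pituitary and are themselves stimulated by prolactin through its receptor. Other dopaminergic groups lie in the periventricular and posterior hypothalamus and in the zona incerta, and some hypothalamic neurons carry tyrosine hydroxylase without the rest of the dopamine machinery.

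The genes of the rule are described first, without a test, since they chose the nuclei. *Th* (ENSMUSG00000000214) lies on the minus strand of chromosome 7 of GRCm38 from 142892752 to 142931128, *Slc6a3* (ENSMUSG00000021609) on the plus strand of chromosome 13 from 73536747 to 73578672, and *Slc18a2* (ENSMUSG00000025094) on the plus strand of chromosome 19 from 59260896 to 59296012 (GENCODE vM21). The median dopaminergic nucleus held 8446 UMIs (3183 to 24262), against 6499 in other neurons, and 3 *Th* UMIs (2 to 14). *Th* stood at 501, 409, 352 and 261.0 CPM in ad-libitum-fed libraries 1 to 4 and at 419.9 and 354 CPM in the fasted ones. *Slc18a2* stood at 234, 297, 168 and 141 CPM in ad-libitum-fed libraries 1 to 4 and at 209.9 and 142 CPM in the fasted ones. *Slc6a3* was sparse, with 134, 37.2, 24.5 and 2.61 CPM in ad-libitum-fed libraries 1 to 4 and 56.5 and 35.4 CPM in the fasted ones.

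The name *Th*/*Slc6a3* neuron thus rests mostly on *Th* and *Slc18a2*. Of the 323 *Th*, 162 *Slc18a2* and 24 *Slc6a3* UMIs in the 94 nuclei, the *Slc6a3* UMIs lay in 19 nuclei, 16 of which also held a *Slc18a2* UMI, while 75 nuclei entered through *Slc18a2* alone. Conversely, 250 neurons in all held a *Slc6a3* UMI, and 231 of them were outside the rule, 204 with no *Th* UMI. In pooled counts these 204 neurons held 124 CPM of the glutamate transporter gene *Slc17a6*, 55.0 CPM of *Gad1* and 168 CPM of *Prlr*, where the 94 nuclei held 49.2, 131 and 301 CPM. Their levels of *Ddc* (166 CPM), *Sntg2* (165 CPM) and *Glis3* (67.6 CPM) lay near the 176, 144.5 and 73.8 CPM of the 94 nuclei. These levels were not tested. At the edge of the rule, 46 of the 94 nuclei held exactly 2 *Th* UMIs and 129 further neurons held 1 *Th* UMI with a transporter UMI. *Prlr* stood at 287 CPM in the former and at 228 CPM in the latter, and *Ddc* at 125 and 131 CPM, in pooled counts. Split by transporter, 50 of the 94 nuclei held exactly 1 transporter UMI and 44 held more, and 205 further neurons met the *Th* threshold with no transporter UMI. The exclusion of *Ghrh* and *Hdc* removed 11 and 1 neurons, and 16 and 6 of the 94 nuclei held a single UMI of these genes. Free RNA can give UMIs to nuclei that do not express a gene. Oligodendrocyte nuclei, which should lack these genes, numbered 919 (median 2311 UMIs), 105, 96, 13 and 14 in ad-libitum-fed libraries 1 to 4 and 338 and 353 in the fasted ones, so they give little measure of free RNA in ad-libitum-fed libraries 3 and 4. Among them 0.762% held a *Th* UMI, 1.09% a *Slc18a2* UMI and 0 a *Slc6a3* UMI, and 0 of 919 met the *Th* and transporter thresholds, which allows a share of up to 0.326% by a limit of 3 counts and 0.401% by the 95% exact binomial interval. Barcodes were shared between every pair of libraries, 5 to 17 per pair, but none of the 94 dopaminergic barcodes recurred in another library.

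Dopaminergic neurons formed 0.0669% (0.0217 to 0.156%), 0.0861% (0.0280 to 0.201%), 0.465% (0.312 to 0.667%) and 0.495% (0.336 to 0.701%) of the neurons of ad-libitum-fed libraries 1 to 4, and 0.310% (0.169 to 0.519%) and 0.228% (0.109 to 0.418%) of those of fasted libraries 1 and 2. Libraries 1 and 2 lay far below libraries 3 and 4, and the fasted libraries lay between these pairs. The mean share was 0.278% ± 0.233 (SD, n = 4) in the ad-libitum-fed and 0.269% ± 0.0581 (SD, n = 2) in the fasted libraries, and the difference of -0.00952 percentage points gave p = 0.933 in an exact two-sided permutation test, for which 0.133 is the smallest possible p. The test counts libraries, although 2 libraries came from each pool of mice, and with 2 pools against 1 it says nothing of the spread between pools of fasted mice. The shares moved with depth. The median neuron outside the rule held 4637 and 4765 UMIs in libraries 1 and 2, 8789 and 8890.5 in libraries 3 and 4, and 6797 and 6804 in the fasted libraries. With the whole rule applied to neurons thinned to 2000 UMIs, 6 of 29972 met it, 1, 0, 4 and 0 in ad-libitum-fed libraries 1 to 4 and 1 and 0 in the fasted ones, and the mean shares differed by -0.00940 percentage points (exact two-sided permutation test, p = 1). When every neuron was thinned to 2000 UMIs, 1.06, 1.14, 1.65 and 1.29% of ad-libitum-fed neurons and 1.48 and 0.942% of fasted neurons held a *Th* UMI. The share with a *Slc18a2* UMI was then 3.57, 3.34, 3.32 and 3.03% in the ad-libitum-fed and 3.34 and 2.83% in the fasted libraries, and the share with a *Slc6a3* UMI 0.299, 0.175, 0.178 and 0.177% and 0.246 and 0.276%. At equal depth 1 fasted library lay inside the ad-libitum-fed range for *Th* and 1 below it. Fewer cells of this kind and less *Th* RNA per cell cannot be told apart in these shares.

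**Figure D1:**
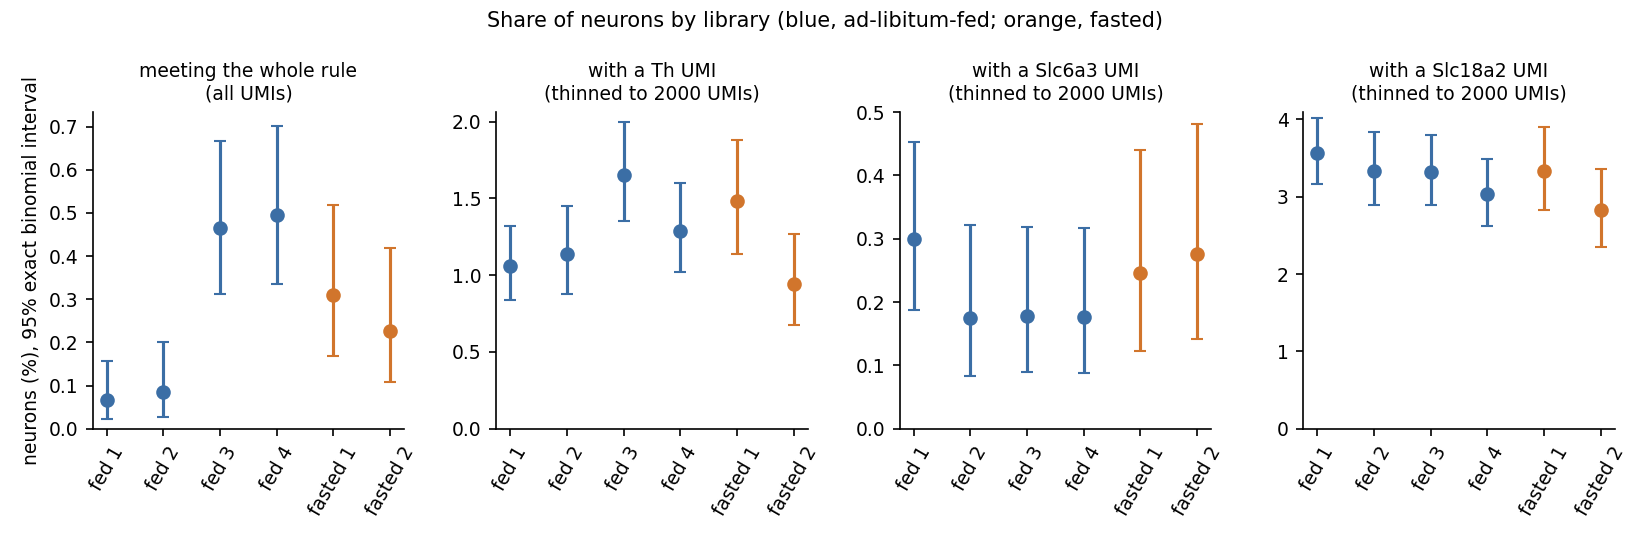
Share of neurons (%) in each of the 6 libraries that met the whole rule, and that held a Th, Slc6a3 or Slc18a2 UMI after thinning to 2000 UMIs (points; lines, 95% exact binomial intervals). The share meeting the rule ran from 0.0669% to 0.495% within the ad-libitum-fed group, whereas the thinned shares of single genes ran from 1.06% to 1.65% for Th and from 3.03% to 3.57% for Slc18a2 in that group.

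To find what these neurons express beyond the genes that chose them, their counts were summed per pool and compared with those of the 34613 other neurons by edgeR's quasi-likelihood test. Of 6144 genes that reached 10 counts in 2 or more libraries of the dopaminergic nuclei, 197 passed an adjusted p of 0.05 (3.21% of genes tested), 89 higher (1.45%) and 108 lower (1.76%) in dopaminergic neurons. This filter left out genes absent from dopaminergic nuclei. Without it 171 genes were called higher and 295 lower, of 19009 tested. The largest p over the 3 ways to pair the ad-libitum-fed libraries into pools was kept, because the pairing is not known, and 460 and 477 genes passed under the pairings that put libraries 1 and 2 in separate pools. Regardless of the test, 4.46% of genes were higher and 5.13% lower in dopaminergic than in other neurons in all 6 libraries. Named by a rule on size and agreement between libraries, the leading genes that rose were *Rxfp2*, *Corin*, *Trpc6*, *Pdgfd*, *Scn7a*, *Coch*, *Glis3*, *Pkib*, *Dlx6os1*, *Ddc* and *Dlx1*, and those that fell were *Hs3st4*, *Zfhx3*, *Ncam2*, *Tafa1*, *Tmem132d* and *Kif26b*. All of these differed in the same direction in all 6 libraries.

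*Ddc* (chromosome 11, 11814101 to 11898144, minus strand), the decarboxylase that completes dopamine synthesis, was not part of the rule. It stood at 400.5, 260.2, 186.5 and 167 CPM in the ad-libitum-fed dopaminergic neurons and at 121 and 153.5 CPM in the fasted ones, against 36.0 to 41.5 CPM in other neurons of the same libraries. Every library of dopaminergic neurons lay above every library of other neurons. This gave a log2FC of 2.18 (standard error 0.21, edgeR adjusted p = 2.62e-05). A *Ddc* UMI was present in 60 of 94 dopaminergic nuclei (63.8%) and in 18.3% of other neurons. After thinning to 2000 UMIs the shares were 25.5% (17.1 to 35.6%) and 6.76%, and oligodendrocyte nuclei, which should lack dopamine synthesis, held a *Ddc* UMI in 12.6% of cases, above the share of other neurons. *Gch1*, which encodes the first enzyme for the cofactor that tyrosine hydroxylase needs, had 23 UMIs and was too low to be tested. Its mean level was 22.3 CPM ± 31.4 (SD, n = 6 libraries), ranging from 0 to 82.7 CPM, against 2.34 to 3.40 CPM in other neurons. Of the 15 genes listed for dopamine synthesis and handling, 12 were outside the rule and 4 of these were tested. *Ddc* rose, and *Pts*, *Pcbd1* and *Maoa* did not pass, with log2FC from 0.11 to 0.74.

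Receptors for hormones were represented by *Prlr* and *Rxfp2*. *Prlr* (chromosome 15, 10177238 to 10349180, plus strand) encodes the prolactin receptor. It stood at 1502, 706, 327 and 162 CPM in ad-libitum-fed and 371 and 177 CPM in fasted dopaminergic neurons, and 87.9 to 98.6 CPM in other neurons. The groups did not overlap, although the level among dopaminergic neurons varied widely between libraries. This gave a log2FC of 2.02 (standard error 0.28, edgeR adjusted p = 0.000822). *Rxfp2* (chromosome 5, 150018675 to 150082184, plus strand) encodes a receptor for the peptide insulin-like 3. It stood at 300, 37.2, 76.4 and 41.8 CPM in ad-libitum-fed and 48.45 and 47.25 CPM in fasted dopaminergic neurons, against 2.82 to 5.10 CPM in other neurons, with a log2FC of 4.40 (standard error 0.51, adjusted p = 0.000144 from edgeR). Its 61 UMIs lay in 24 of the 94 nuclei. Of 43 hormone and peptide receptors listed, 15 were tested, 2 rose and none fell, and the median log2FC of the 15 was 0.15 against 0.01 for all genes. Receptor genes absent from dopaminergic nuclei could not be tested, such as *Kiss1r*, at 0 CPM there and 4.48 to 5.58 CPM in other neurons. *Esr1*, the estrogen receptor gene, had a log2FC of 0.19 and *Insr*, the insulin receptor gene, one of -0.06, and neither passed. Among the genes of prolactin signalling downstream of the receptor, the kinase gene *Jak2* (log2FC 0.05) and the transcription factor genes *Stat5b* (0.19) and *Stat3* (0.54) were tested and did not pass. The 5 dopamine receptor genes were too low to be tested, and a UMI of *Drd2*, the autoreceptor, was found in 13 of 94 nuclei and, after thinning, in 3.19% of them (0.663 to 9.05%) against 1.16% of other neurons.

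Transcription factors split in both directions. *Dlx1*, a homeobox gene of forebrain GABAergic neurons, and *Dlx6os1*, a non-coding RNA transcribed opposite *Dlx6*, rose by a log2FC of 2.12 (standard error 0.33, adjusted p = 0.00202) and 2.22 (0.26, 0.000173), with 47.25 to 167 CPM and 52.2 to 334 CPM in dopaminergic neurons. *Six3*, a homeobox gene, rose as well (log2FC 1.18, adjusted p = 0.00668), in 5 of 6 libraries. *Zfhx3* (chromosome 8, 107942644 to 108961630, plus strand), a zinc-finger homeobox factor, lay between 94.5 and 164 CPM in dopaminergic and between 449 and 687 CPM in other neurons, a log2FC of -2.19 (standard error 0.22, adjusted p = 4.22e-05). *Zfhx4* (-1.28, adjusted p = 0.018) and *Esrrg* (-0.95, adjusted p = 0.0184) fell too. In all, 3 of the 13 tested of 35 listed hypothalamic transcription factors rose and 3 fell by edgeR's test, with a median log2FC of 0.16. *Sox6*, a factor of midbrain dopaminergic neurons that is also widely used elsewhere, rose (log2FC 2.07, adjusted p = 4.07e-05) in 5 of 6 libraries.

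Among 24 channel genes linked to rhythmic firing, 17 were tested. *Trpc6* and *Scn7a* rose, *Trpc5* fell, and 14 did not pass, with a median log2FC of -0.14. *Trpc6* (chromosome 9, 8544142 to 8680741, plus strand), which encodes a receptor-operated cation channel, stood at 734, 372, 88.7 and 91.3 CPM in ad-libitum-fed and 396 and 319 CPM in fasted dopaminergic neurons, against 18.4 to 33.3 CPM in other neurons. Both fasted libraries lay between the low ad-libitum-fed libraries 3 and 4 and the highest, library 1. This gave a log2FC of 3.22 (standard error 0.28, edgeR adjusted p = 1e-05). *Scn7a* (chromosome 2, 66673425 to 66784914, minus strand), which encodes a sodium-sensing channel, lay between 33.4 and 149 CPM in dopaminergic and between 12.8 and 16.0 CPM in other neurons (log2FC 2.86, standard error 0.24, adjusted p = 9.42e-06). *Trpc5*, a channel of the same family as *Trpc6*, was at 0, 0, 85.6, 104, 64.6 and 118 CPM in the 6 libraries in the same order, against 169 to 189 CPM (log2FC -1.11, adjusted p = 0.0209).

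The remaining named genes that rose encode proteins of several kinds. *Corin*, a membrane protease that processes natriuretic peptides (log2FC 3.40, adjusted p = 0.00303), ranged from 7.83 to 334 CPM. *Pdgfd*, a growth factor (3.07, 0.00132), and *Coch*, a secreted matrix protein (2.70, 0.00066), ranged from 37.2 to 167 CPM and from 11.8 to 112 CPM. *Glis3*, a zinc-finger factor, rose by 2.48 (adjusted p = 0.000497), and *Pkib*, an inhibitor of protein kinase A, by 2.25 (9.42e-06). *Pkib* varied little between libraries, with 130 to 208 CPM in dopaminergic and 30.1 to 38.0 CPM in other neurons. *Hs3st4*, a heparan sulfate sulfotransferase, fell (log2FC -2.20, adjusted p = 2.49e-05), from 276 to 348 CPM in other neurons to 0 to 223 CPM in dopaminergic ones. The adhesion molecule gene *Ncam2* (-1.96), the secreted-factor gene *Tafa1* (-1.85), *Tmem132d* (-1.85) and the kinesin gene *Kif26b* (-1.76) fell by similar steps. *Gem*, an activity-dependent gene, was higher in dopaminergic neurons (2.27, adjusted p = 0.00066), the only call among 5 tested of 25 such genes listed. *Sv2c* and *Zbtb16* were called higher among 6 tested of 18 glucocorticoid and fasting genes, but were no longer called in 1 of 16 and 5 of 14 alternatives. All of these are edgeR calls. No gene of peptide processing and granins (10 tested of 11) or of calcium binding (2 tested of 3) was called, *Sox6* was the only one tested of 10 midbrain factors, and none of the 10 genes outside the rule among those listed for other monoamine and acetylcholine cells was high enough to be tested.

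**Figure D2:**
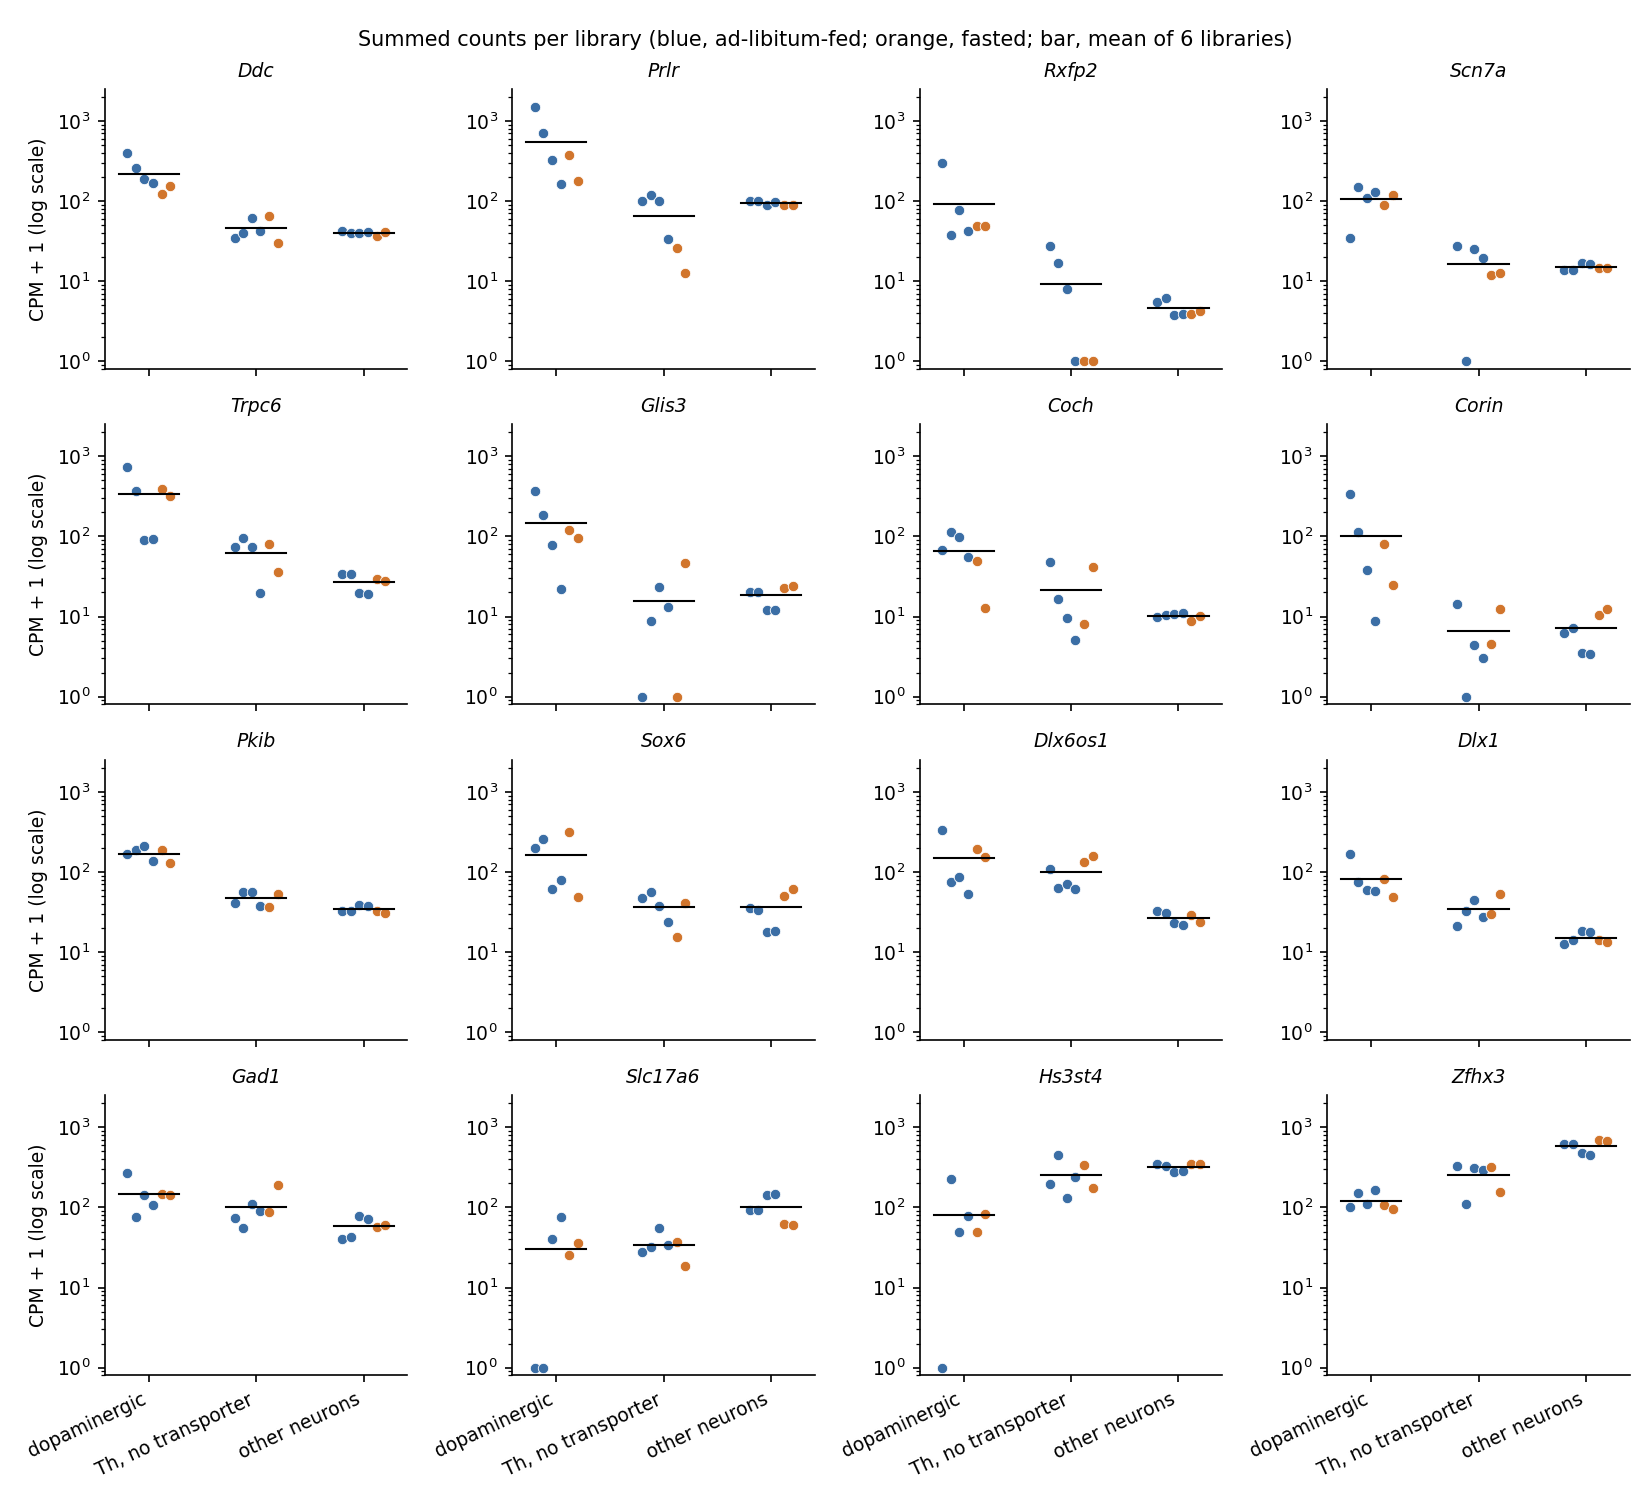
Summed counts of named genes (CPM + 1, log scale) in dopaminergic neurons, in Th neurons without a transporter UMI and in other neurons. Points are the 4 ad-libitum-fed (blue) and 2 fasted (orange) libraries and bars the mean of 6. In dopaminergic neurons Ddc lay between 121 and 400.5 CPM and Pkib between 130 and 208 CPM, above every library of other neurons, and Zfhx3 between 94.5 and 164 CPM, below every library of other neurons.

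Of the amino acid transmitter genes, *Gad1* and *Gad2* rose and *Slc17a6* fell against other neurons. *Gad1* (chromosome 2, 70553072 to 70602014, plus strand), which encodes a GABA-synthesizing enzyme, stood at 267, 74.3, 144 and 107 CPM in ad-libitum-fed and 145 and 142 CPM in fasted dopaminergic neurons, against 40.0 to 77.0 CPM in other neurons. It rose by a log2FC of 1.05 (standard error 0.21, adjusted p = 0.0118 from edgeR), and *Gad2* by 0.91 (0.17, 0.00621). *Slc32a1*, the vesicular GABA transporter gene, did not pass (0.70, adjusted p = 0.223). *Slc17a6* (chromosome 7, 51622006 to 51671119, plus strand), the vesicular glutamate transporter gene, stood at 0, 0, 39.7 and 75.7 CPM in ad-libitum-fed and 24.2 and 35.4 CPM in fasted dopaminergic neurons and fell by 1.38 on the log2 scale (standard error 0.25, adjusted p = 0.00529). Of the 94 nuclei, 67 (71.3%) held a UMI of *Gad1*, *Gad2* or *Slc32a1* and none of *Slc17a6*, 5 held *Slc17a6* only, 14 held both and 8 neither. The share with a GABA gene UMI and none of *Slc17a6* was 36.1% of other neurons and 3.70% of oligodendrocyte nuclei. After thinning it was 54.3% (43.7 to 64.6%) of dopaminergic nuclei, 25.3% of other neurons and 2.91% of oligodendrocyte nuclei. In a nucleus of this depth a gene with no UMI may still be expressed.

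Of 27 neuropeptide genes listed, which include the calcitonin receptor gene *Calcr*, 14 were tested. *Gal*, *Calcr*, *Cck* and *Avp* were called higher than in other neurons, and *Pmch*, *Hcrt* and *Pomc*, which belong to melanin-concentrating hormone, hypocretin and proopiomelanocortin neurons, were called lower. *Pmch* (log2FC -3.10, adjusted p = 0.000348 from edgeR) ranged from 0 to 42.8 CPM in dopaminergic and from 23.6 to 540 CPM in other neurons. *Hcrt* and *Pomc* were each lower in only 3 of 6 libraries. *Cck* was higher in 3 of 6 libraries, with UMIs in 12 of the 94 nuclei. *Calcr* was higher in 5 of 6 libraries, with UMIs in 27 nuclei (28.7%) against 8.01% of other neurons. *Gal* and *Avp* were each higher in 4 of 6 libraries. *Gal* stood at 0 CPM in ad-libitum-fed libraries 1 and 2, at 1247 and 436 CPM in libraries 3 and 4, and at 40.4 and 47.25 CPM in the fasted ones, and 13 nuclei of libraries 3 and 4 with at least 5 *Gal* UMIs held 547 of its 584 UMIs. *Avp* (log2FC 1.69, adjusted p = 0.0204 from edgeR) had 94.6% of its 1730 UMIs in 5 nuclei, and its log2FC was -1.66 without them, a value with no weight as a test since they were chosen on this count.

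A second comparison set the 94 nuclei against the 205 neurons that met the *Th* threshold without a transporter UMI, which had a similar median depth of 8110 UMIs. By edgeR's test 105 genes differed (1.71% of genes tested), 57 higher (0.928%) and 48 lower (0.781%) in dopaminergic neurons, and 2.96% and 3.29% of genes were higher and lower in all 6 libraries. *Ddc* was at 28.9 to 64.6 CPM in the *Th* neurons without a transporter UMI, a log2FC of 1.87 (standard error 0.25, adjusted p = 0.000161). *Prlr* was at 100, 118, 99.0 and 33.0 CPM in their ad-libitum-fed and 25.1 and 11.6 CPM in their fasted libraries, lower than in dopaminergic neurons in all 6 libraries (log2FC 2.34, standard error 0.23, adjusted p = 3.27e-05). *Rxfp2* (3.67), *Corin* (3.57), *Pdgfd* (2.69), *Scn7a* (2.58), *Glis3* (2.46), *Pkib* (1.85), *Sox6* (1.79), *Sntg2* (1.69), a syntrophin gene, and *Trpc6* (1.68) were higher in all 6 libraries as well, and *Six3*, *Lhx1*, *Coch*, *Cck* and *C1ql1* were called higher without that agreement. Lower in dopaminergic neurons in all 6 libraries were the receptor accessory gene *Il1rapl2* (-1.76), *Dpp10* (-1.71), which modulates potassium channels, *Hs3st4* (-1.70), *Utrn* (-1.64), the somatostatin gene *Sst* (-1.61) and the non-coding RNA *Rmst* (-1.37). *Avp* (-1.60, adjusted p = 0.0127) and *Ghr* (-0.92, 0.0191) were called lower too. No amino acid transmitter gene was called here. *Gad1* had a log2FC of 0.37 and *Slc17a6* one of 0.18, and *Dlx1* (0.91) and *Dlx6os1* (0.22) did not pass either.

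Depth differed between the groups, so shares of nuclei were also compared after thinning each nucleus to 2000 UMIs. A *Prlr* UMI was then found in 35.1% (25.5 to 45.6%) of 94 dopaminergic nuclei, in 7.32% of *Th* neurons without a transporter UMI, in 14.1% of 34172 other neurons and in 1.13% of 618 oligodendrocyte nuclei. *Trpc6* was found in 24.5% (16.2 to 34.4%), 9.27%, 4.74% and 0.162%, and *Rxfp2* in 10.6% (5.22 to 18.7%), 0.976%, 0.612% and 0.162% of the same groups. *Slc17a6* was found in 3.19% (0.663 to 9.05%) of dopaminergic nuclei and in 16.5% of other neurons. Intervals cover counting error only and treat nuclei of 1 library as independent.

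**Figure D3:**
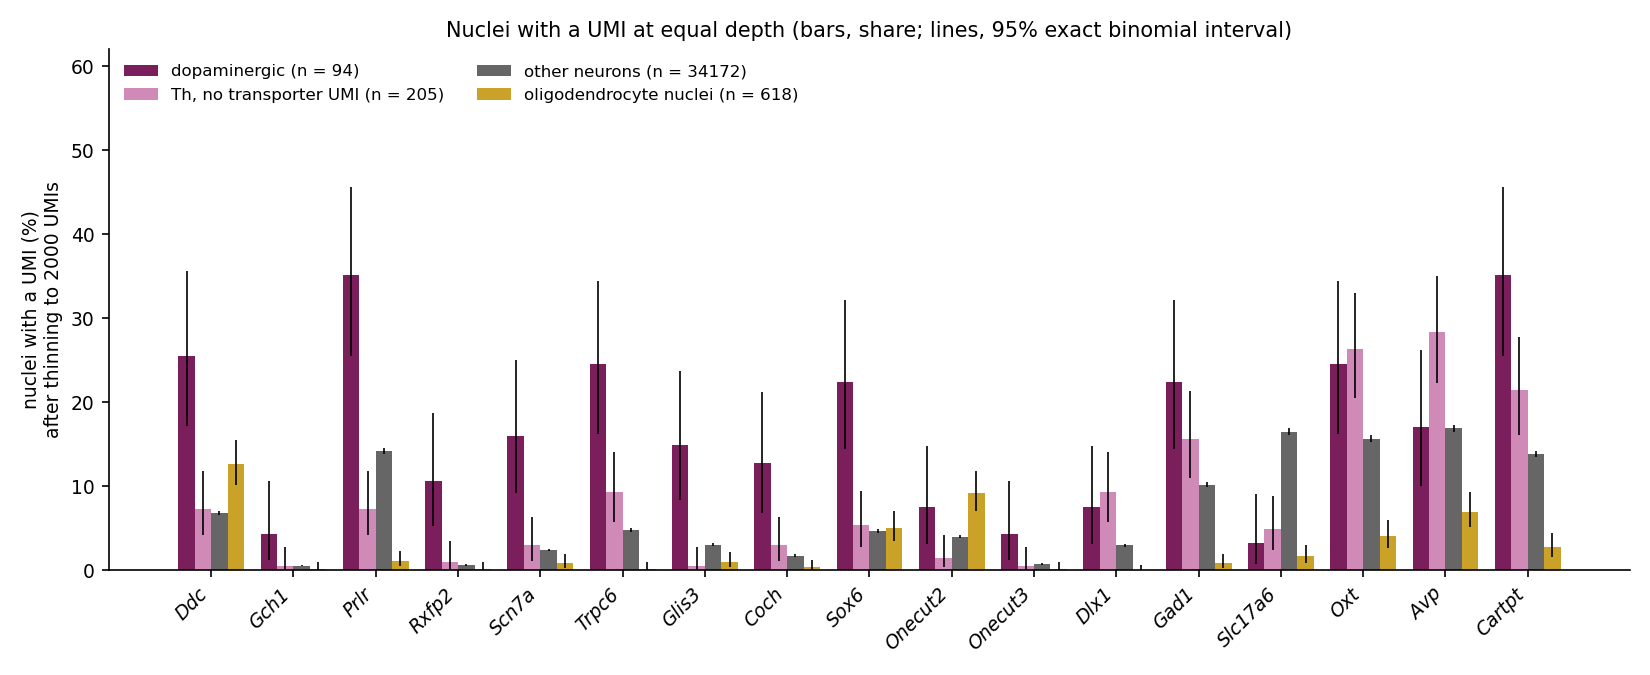
Share of nuclei (%) with a UMI of each gene after thinning to 2000 UMIs, in dopaminergic nuclei, Th neurons without a transporter UMI, other neurons and oligodendrocyte nuclei (bars; lines, 95% exact binomial intervals). Prlr reached 35.1% of dopaminergic nuclei against 14.1% of other neurons, Rxfp2 10.6% against 0.612%, and Slc17a6 3.19% against 16.5%.

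The 94 nuclei were not uniform. A set of 6 markers of an arcuate dopaminergic type, *Prlr*, *Rxfp2*, *Coch*, *Sntg2*, *Scn7a* and *Glis3*, was counted in each nucleus. At least 3 of the 6 were present in 44 nuclei (46.8%, 95% exact binomial interval 36.4 to 57.4%), against 4.03% of other neurons, and after thinning in 17.0% against 0.375%. By library these were 5 of 5, 2 of 5, 14 of 29 and 12 of 31 ad-libitum-fed and 9 of 14 and 2 of 10 fasted nuclei. The number of markers is a graded count, and 14 nuclei held exactly 2 of them and 10 exactly 3. *Trpc6*, which is outside the set, had a UMI in 33 of the 44 nuclei with at least 3 markers and in 8 of the other 50, and *Corin* in 18 and 3. *Ddc* had a UMI in 30 of 44 and 30 of 50, and *Slc6a3* in 13 and 6. *Onecut2* or *Onecut3*, listed as markers of another dopaminergic type, had a UMI in 21 nuclei (22.3%, 14.4 to 32.1%), 7 of ad-libitum-fed library 3, 9 of library 4 and 3 and 2 of the fasted libraries, against 11.8% of other neurons, and after thinning in 11.7% against 4.57%. The 21 nuclei were deeper (median 12350 UMIs) than the other 73 (8046). After thinning *Onecut2* was found in 7.45% of the 94 nuclei (3.05 to 14.7%), 3.99% of other neurons and 9.22% of oligodendrocyte nuclei. The oligodendrocyte share lay above that of other neurons, so it gives no clear background for this gene. The part of free RNA in these UMIs was not tested. *Onecut3* was found in 4.26% (1.17 to 10.5%) of the 94 nuclei and 0.162% of oligodendrocyte nuclei. The 21 nuclei are therefore described by these UMIs and not named as a type. Only 5 of these 21 also held at least 3 of the 6 markers. The 6 markers also occurred in them. *Scn7a* had a UMI in 13 of the 21 nuclei and in 31 of the other 73, and 55 of its 110 UMIs lay in the 21. *Prlr* had one in 11 and 50, *Coch* in 7 and 28, *Sntg2* in 2 and 37, *Glis3* in 2 and 30 and *Rxfp2* in 0 and 24. None of the 21 held a *Trpc6* UMI and 19 held a *Ddc* UMI, while 34 nuclei met neither description. These counts describe nuclei and carry no test, since the markers and nuclei were chosen on the same data.

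**Figure D4:**
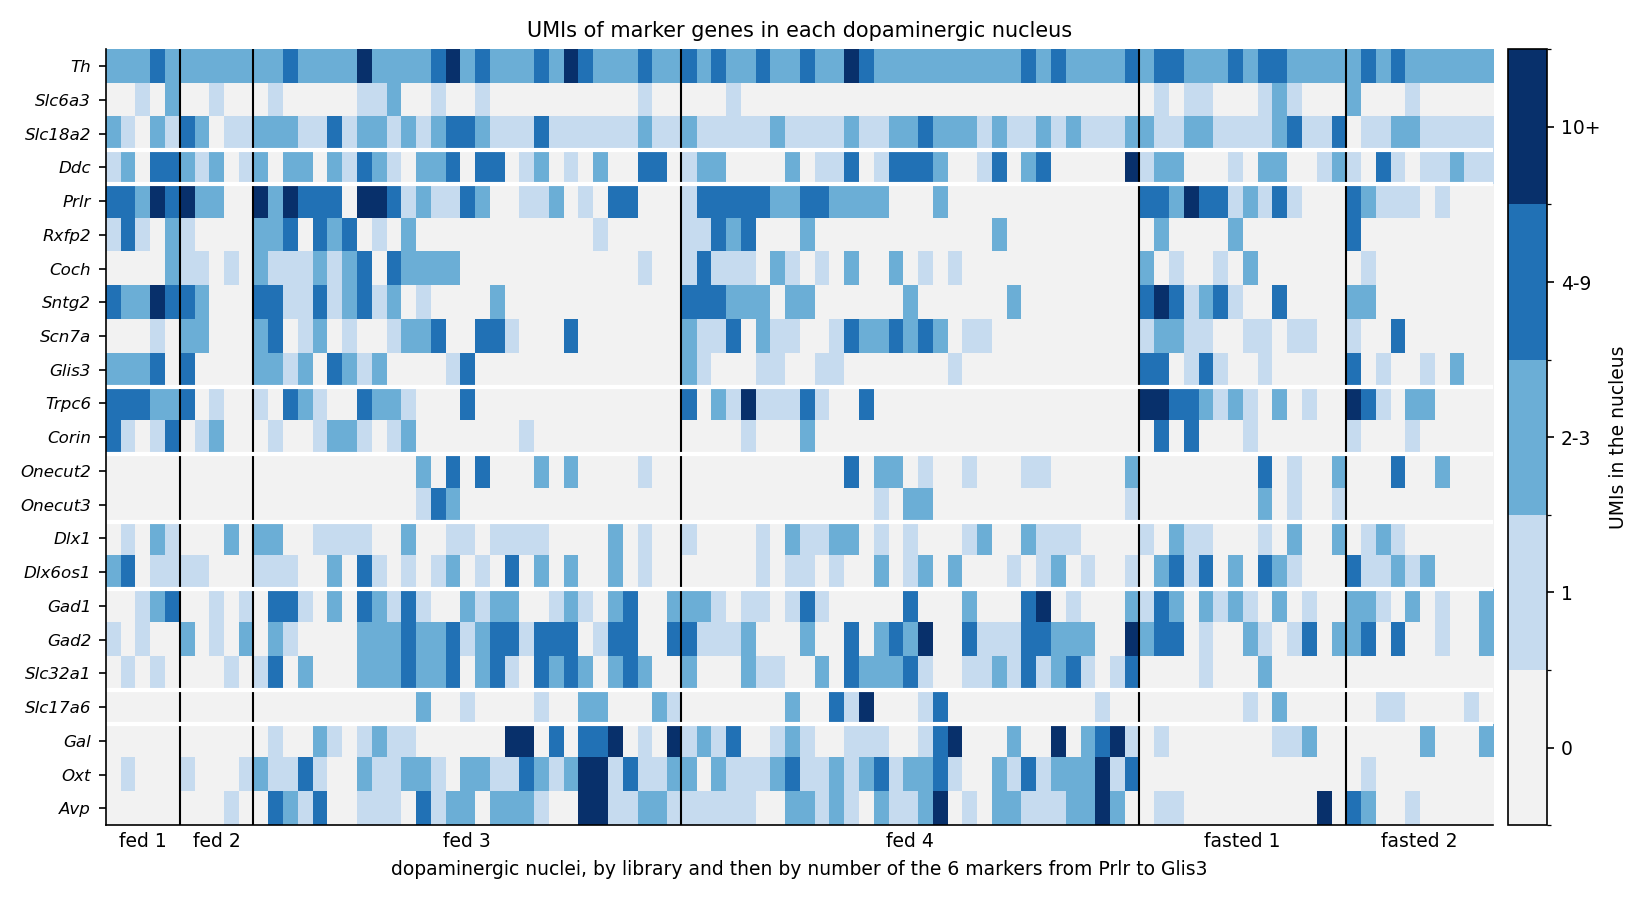
UMIs of single genes (rows) in each of the 94 dopaminergic nuclei (columns), ordered by library and then by how many of the 6 markers from Prlr to Glis3 they held, with shading from 0 to 10 or more UMIs. The 44 nuclei with at least 3 of the 6 markers stand at the left of each library and hold most Trpc6 UMIs, the 21 nuclei with Onecut2 or Onecut3 UMIs stand mostly to their right, and Oxt, Avp and Gal UMIs are crowded into ad-libitum-fed libraries 3 and 4.

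A small group stood apart by its peptides. The 5 nuclei with at least 20 *Oxt* and *Avp* UMIs, the genes of oxytocin and vasopressin in magnocellular neurons, came from ad-libitum-fed libraries 3 and 4 (2 each) and fasted library 1 (1). They held 96.6% of the 3490 *Oxt* UMIs and 94.6% of the 1730 *Avp* UMIs of the dopaminergic nuclei. A single nucleus of ad-libitum-fed library 3 held 3021 *Oxt* UMIs. Each had 2 to 4 *Th* UMIs, 1 to 3 *Slc18a2* UMIs and no *Slc6a3* UMI, 4 of the 5 held *Slc17a6* UMIs, and none held 3 of the 6 markers or was marked as a doublet. In all, 7 of the 94 nuclei were marked as doublets, 4 of them in fasted library 1.

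Nuclei with a *Slc6a3* UMI (19) were compared with those without (75). By edgeR's test 4 genes differed (0.0651% of genes tested), 0 higher and 4 lower with *Slc6a3*. These were *Oxt*, *Avp*, *Gal* and *Col25a1*, a membrane collagen gene, with log2FC of -5.47, -2.80, -2.40 and -3.50. No gene was called without ad-libitum-fed library 1 or without library 3. All 5 nuclei rich in *Oxt* and *Avp* were among the 75 without *Slc6a3*, and without these nuclei, which were chosen on the counts of both genes, no gene was called and *Avp* stood at 0.68. *Ddc* (0.32), *Prlr* (0.81) and *Trpc6* (0.46) did not pass at this depth.

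Other catecholamine cells were looked for by their markers. Of 5 markers of midbrain dopaminergic neurons outside the rule, *Pitx3*, *Foxa2* and *Aldh1a1* had no UMI in any of the 94 nuclei, *En1* had one in 1 nucleus and *Lmx1b* in 3, and no nucleus held 2 of the markers. Of the 10 midbrain factors listed, however, *Sox6* was called higher (above), and *Nr4a2*, a nuclear receptor gene, had a UMI in 10.6% of dopaminergic nuclei and 3.99% of other neurons, or 2.13% (0.259 to 7.47%) and 1.37% after thinning. *Dbh*, *Slc6a2* and *Phox2a* of noradrenergic neurons were at 0 in 94 of 94 nuclei (95% exact binomial interval 0 to 3.85%). Of glial and vascular genes, the 5 oligodendrocyte markers summed to 33.4 to 129 CPM in dopaminergic and 94.1 to 245 CPM in other neurons, led by *Mbp*, and the 3 tanycyte markers to 0 to 12.2 CPM and 16.1 to 42.4 CPM. The 5 astrocyte markers, led by *Slc1a2*, summed to 18.3 to 105 CPM in dopaminergic and 38.8 to 97.2 CPM in other neurons. *Cx3cr1* and *Csf1r* of microglia and *Cldn5* and *Slco1a4* of endothelium were at 0. *P2ry12*, the third microglial marker, reached 167 CPM in ad-libitum-fed library 1, and *Flt1*, the third endothelial marker, 37.2 CPM (1 UMI) in library 2, against at most 2.13 CPM in other neurons. No astrocyte, tanycyte, microglial or endothelial marker was high enough to be tested, and the 1 oligodendrocyte marker tested was not called. *C1ql1*, listed as an oligodendrocyte precursor marker, was called higher in dopaminergic neurons (log2FC 3.11, adjusted p = 0.0127 from edgeR) on 71 UMIs in 6 nuclei of ad-libitum-fed libraries 3 and 4, while *Cspg4* of the same list was at 0.

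The fasted pool was compared with the ad-libitum-fed pools to ask which genes of dopaminergic neurons change with food deprivation. No gene passed edgeR's test (0 of 6144, 0% of genes tested). Before adjustment 413 genes had a p under 0.05 and the smallest adjusted p was 0.0654. With relative log expression normalization edgeR's smallest adjusted p was 0.974, and DESeq2 called 1 gene. With 1 fasted pool the fasted spread is assumed to equal that of the ad-libitum-fed pools, and the pool and the condition cannot be told apart. The pairings of the ad-libitum-fed libraries that put libraries 1 and 2 in separate pools gave 1423 and 1413 calls, against 0 when 1 and 2 formed a pool. For 10.6% of genes tested the pair of fasted libraries exceeded the whole ad-libitum-fed range, and for 7.37% it fell short of it, and the counts of listed genes are to be read against these shares.

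The lowest adjusted p belonged to *Cartpt* and *Oxt*. *Cartpt* (chromosome 13, 99898489 to 99901091, minus strand) encodes the anorexigenic peptide CART. It stood at 200, 1078, 786 and 527 CPM in ad-libitum-fed dopaminergic neurons and at 0 and 23.6 CPM in fasted ones. The groups did not overlap. A UMI was present in 53 of 70 ad-libitum-fed and in 1 of 24 fasted nuclei, and after thinning in 33 of 70 (47.1%, 35.1 to 59.4%) and 0 of 24 (up to 14.2%). The thinned shares were 17.1 and 4.43% of other neurons and 9.76 and 1.68% of oligodendrocyte nuclei in ad-libitum-fed and fasted libraries, and 14.8% (4.19 to 33.7%) of the 27 oligodendrocyte nuclei of ad-libitum-fed libraries 3 and 4, so this background differed between conditions too, and its part in the values was not tested. Pooled, the level was 67.1-fold lower in the fasted state (95% counting interval 18.5 to 556), at an adjusted p of 0.0654 from edgeR. Both fasted UMIs lay in fasted library 2, and the fold was 27.3 (7.51 to 226) without fasted library 1 and at least 26.6 without fasted library 2, with 0 counts set to 3. Other neurons held 74.3, 83.6, 353 and 338 CPM in the ad-libitum-fed and 25.8 and 34.0 CPM in the fasted libraries, and the difference between the fasting responses of dopaminergic and other neurons was -2.92 on the log2 scale (standard error 0.75, adjusted p = 0.57). *Oxt* stood at 33.4, 74.3, 9419 and 1057 CPM in ad-libitum-fed and at 0 and 11.8 CPM in the fasted libraries. Its pooled level was 948-fold lower (170 to 37500) at the same adjusted p, but 86.6% of its UMIs lay in 1 nucleus of ad-libitum-fed library 3. The fold was 193 without that library, 1670 without ad-libitum-fed library 4, 385 without fasted library 1 and at least 188 without fasted library 2. The value without library 3 also rests mostly on 1 nucleus, which held 335 of the 405 *Oxt* UMIs of library 4. The counting interval treats UMIs of 1 nucleus as independent, and no fold was computed without the nuclei rich in *Oxt* and *Avp*. Other neurons also had 825 and 1040 CPM of *Oxt* in libraries 3 and 4 against 17.2 to 73.9 CPM elsewhere.

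Of the genes with both fasted libraries below all others, some named by size or from the lists held at most 3 UMIs in fasted nuclei. Like *Cartpt* and *Oxt*, these genes passed the count filter through ad-libitum-fed libraries alone, which favours a lower fasted level. *Nts*, the neurotensin gene, was at 33.4, 781, 76.4 and 172 CPM in ad-libitum-fed and 16.15 and 0 CPM in the fasted libraries (15.4-fold lower in pooled counts, 4.15 to 128; 9.12-fold without fasted library 2 and at least 4.16-fold without fasted library 1). Of its 115 UMIs, 46 lay in 1 nucleus of ad-libitum-fed library 4, and 1 nucleus of library 2 held 20 of the 21 there. *Slc32a1* was at 66.8, 37.2, 208 and 141 CPM and at 24.2 and 0 CPM (11.3-fold, 3.79 to 55.7; 6.73-fold without fasted library 2 and at least 4.60-fold without fasted library 1). *Eif4e2*, *Mrpl28*, *Coprs*, *Exosc4*, *Fam183b* and *Banf1* had 24 to 40 UMIs in the ad-libitum-fed and none in the fasted nuclei, which makes their pooled levels at least 2.17-fold to 3.62-fold lower when the fasted count is set to 3. These bounds carry no test, since the genes were chosen for lying below all others. *Ddc* was lower in both fasted libraries as well (log2FC -0.87, standard error 0.87, adjusted p = 1). Over lists, 4 of 14 tested neuropeptide genes had both fasted libraries below all others and 0 above, with a median log2FC of -3.04, or -2.89 with genes absent from fasted nuclei set to their bound, against -0.03 for all genes. The count filter favours such a median and such counts, since *Cck*, *Gal*, *Sst* and *Oxt* reached 10 counts only in ad-libitum-fed libraries 3 and 4. *Cartpt*, *Nts*, *Npy*, *Hcrt*, *Tac1*, *Pnoc* and *Pomc*, with at most 3 UMIs in fasted nuclei, also passed it through ad-libitum-fed libraries alone. Most of the 14 genes thus entered through the condition where they were high, and the median carries no weight as a test. For 10 genes of peptide processing and granins the median was -1.15, with 2 below and 1 above. The difference of the fasting response from that of other neurons had a median of -0.10 over the 14 neuropeptide genes and 0.03 over these 10, with none called by edgeR. The summed ribosomal protein genes moved with the same libraries. They took 3871, 4906, 22120 and 19480 CPM in ad-libitum-fed and 2745 and 2858 CPM in fasted dopaminergic neurons, and 4085, 4213, 18180, 18440, 2812 and 2806 CPM in other neurons, and mitochondrial genes 668, 892, 3397 and 2364 CPM and 105 and 82.7 CPM in dopaminergic neurons. Their part in the peptide values was not tested.

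The 8 genes with the largest log2FC among those above all ad-libitum-fed libraries, by the rule for named genes, were *Cdc26*, *Wdr20*, *Osbp2*, *Shisa6*, *Rgs6*, *Papss1*, *Sugp1* and *Ryr3*, with log2FC from 1.76 to 2.17 and adjusted p from 0.408 to 0.913. *Shisa6*, an auxiliary gene of AMPA receptors, stood at 100, 74.3, 42.8 and 62.6 CPM in ad-libitum-fed and 234 and 248 CPM in fasted neurons, and *Ryr3*, a calcium-release channel gene, at 33.4, 74.3, 64.2 and 94.0 CPM and at 291 and 189 CPM. In other neurons *Shisa6* stayed between 38.1 and 59.4 CPM in all 6 libraries, but edgeR's test of the difference in fasting response did not call it. *Thrb*, a thyroid hormone receptor gene, stood at 167, 112, 147 and 144 CPM in ad-libitum-fed and 331 and 484 CPM in fasted dopaminergic neurons (log2FC 1.43, standard error 0.81, adjusted p = 0.923). *Sgk1*, a glucocorticoid-induced kinase gene, stood at 0, 37.2, 45.9 and 31.3 CPM and at 105 and 94.5 CPM (1.52, 0.79, 0.803). *Insr*, *Nr3c2*, *Onecut2*, *Gem* and *Pam* also had both fasted libraries above, but the log2FC of *Insr* was -0.04 without marked doublets. *Prlr* (-0.10), *Trpc6* (0.29), *Gad1* (-0.02) and *Gad2* (0.05) had overlapping values, with standard errors of 0.26, 0.89, 0.83 and 0.83. Each of these errors belongs to the pairing with the largest p for its gene. The small one of *Prlr*, whose ad-libitum-fed libraries varied widely, is therefore no measure of a precise absence of change.

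**Figure D5:**
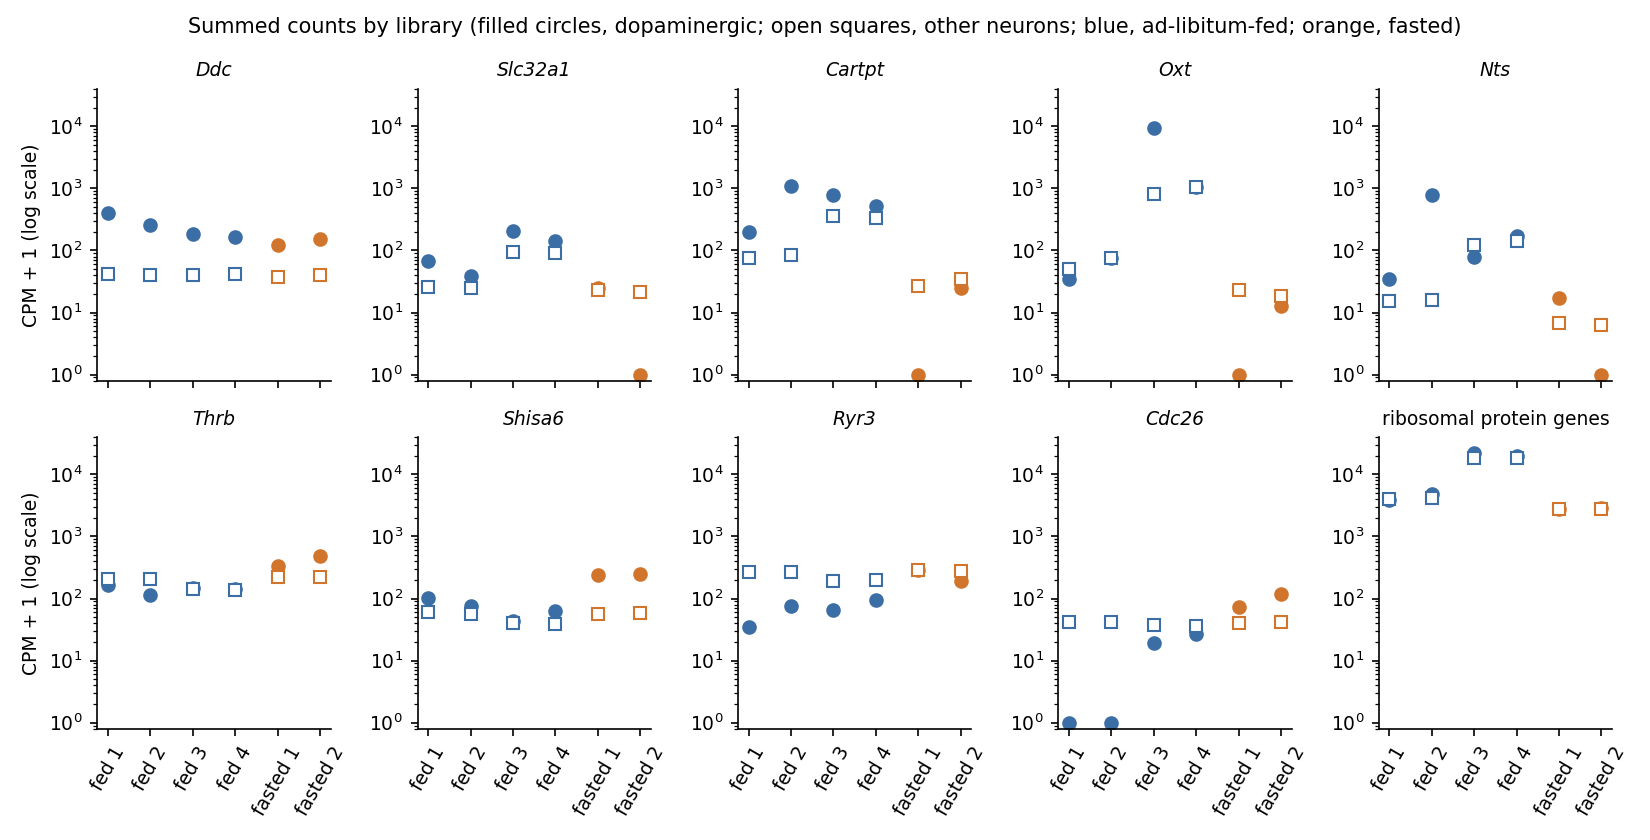
Summed counts (CPM + 1, log scale) of single genes and of the ribosomal protein genes in each library, in dopaminergic neurons (filled circles) and other neurons (open squares). Cartpt was at 0 and 23.6 CPM in fasted dopaminergic neurons against 200 to 1078 CPM in ad-libitum-fed ones, and the ribosomal protein genes stood at 22120 and 19480 CPM in ad-libitum-fed libraries 3 and 4, beside 18180 and 18440 CPM in other neurons.

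Whether dopaminergic neurons respond to fasting differently from other neurons was tested as an interaction. One gene, *C77080*, passed (1 of 6144, 0.0163%), with a difference of 2.99 on the log2 scale (standard error 0.58, adjusted p = 0.00196 from edgeR). It stood at 66.8, 0, 39.7 and 47.0 CPM in ad-libitum-fed and 210 and 11.8 CPM in fasted dopaminergic neurons. Thus 1 fasted library lay above the ad-libitum-fed range and 1 inside it. A single nucleus of fasted library 1, marked as a doublet, held 26 of its 60 UMIs, and the difference was -1.48 without marked doublets and -0.35 without fasted library 1.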

How the data were processed

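Nuclei of whole hypothalami were profiled on the 10x v3 platform, and the deposited UMI counts per gene and nucleus were made by the authors with Cell Ranger 5.0.1 on mm10 (per the submitters' processing notes), with the Ensembl annotation without the overlapping gene Gm28040. From these counts, dopaminergic nuclei were taken by the rule stated above. The 94 nuclei, the gene lists, the tests and the comparisons were chosen with earlier results of these data known. Counts were summed per library and, for tests, per pool, and fitted with edgeR 4.0.16 (R 4.3.3; quasi-likelihood, TMM) under each of the 3 pairings of the ad-libitum-fed libraries. The largest p was kept and adjusted by Benjamini-Hochberg over 6144 genes that reached 10 counts in 2 or more of the 6 library profiles of dopaminergic nuclei. The log2FC and standard error of a gene come from the pairing that gave its largest p, which can differ between genes. Each standard error was derived from the log2FC and the test statistic. The threshold was 0.05, and the p-values measure the spread between pools only. Genes of the rule were left out of the calls, and a few genes of the lists are not reported here and were left out of the counts over lists and of the marker set. Besides the lists, genes were named by a rule that could also pick listed genes, up to 12 called higher and 6 called lower with the largest log2FC that moved the same way in all 6 libraries and had at least 50 CPM, and between conditions the 8 each way with the largest log2FC among genes whose fasted libraries lay outside all others, at 20 CPM or more. The automatic doublet threshold of Scrublet (scanpy 1.11.5) could not be used, so the 5% of nuclei with the highest scores in each library were marked and kept. Thinning drew 2000 UMIs per nucleus. Intervals are exact binomial or exact conditional 95% intervals and cover counting error only. Depth per library and per dopaminergic profile is given in the report. The fits were tested on simulated counts. Alternatives were DESeq2 1.42.0, other normalization, filters, pairings, rule thresholds, thinning, leaving out each library, and, chosen after seeing the data, nuclei with at least 5000 UMIs only and nuclei with fewer than 20 *Oxt* and *Avp* UMIs only.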

Additional observations from a re-analysis of the deposited data

Results flagged for a closer look

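In 10 cases a single ad-libitum-fed library lay apart from the other 3 by Dixon's criterion, of 76 values checked, and chance flags about 1 in 20. Ad-libitum-fed library 1, with 5 dopaminergic nuclei, was highest for *Rxfp2* (300.4 CPM), *Pdgfd* (167 CPM), *Dlx6os1* (334 CPM) and *Dlx1* (167 CPM) and lowest for *Pam* (267 CPM), *Rmst* (33.4 CPM) and *Pmch* (0 CPM). Ad-libitum-fed library 2, also with 5 nuclei, was highest for *Ghr* (446 CPM) and *Fam183b* (74.3 CPM). *Oxt* reached 9419 CPM in ad-libitum-fed library 3, where 1 nucleus held 3021 UMIs.

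The fasting response of *C77080* differed between dopaminergic and other neurons by 2.99 on the log2 scale in edgeR's interaction test (adjusted p = 0.00196), with 26 of its 60 UMIs in 1 marked doublet of fasted library 1.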

How the results depend on the processing

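The pairing of the ad-libitum-fed libraries moved most counts. Pooled as 1+3 and 2+4, or as 1+4 and 2+3, edgeR called 1423 or 1413 genes between conditions (0 as reported), 460 or 477 against other neurons (197), 208 or 171 against *Th* neurons without a transporter UMI (105), and 40 or 44 for the difference in fasting response (1). With 6 separate libraries the counts in the same 4 comparisons were 190, 359, 186 and 2, and without a filter on low counts 17, 466, 181 and 4. DESeq2 called 1 gene between conditions, 27 against *Th* neurons without a transporter UMI, 1 with against without *Slc6a3* (4 as reported) and 0 for the difference in fasting response. Without marked doublets 12 genes were called between conditions and 0 for the difference in fasting response. After thinning, with 924 genes tested, there were 4, 67 and 42 calls in the first 3 comparisons, 2 with against without *Slc6a3* and 0 for the difference in fasting response. With *Slc6a3*-positive nuclei only, 45, 22 and 0 genes were called against other neurons, against *Th* neurons without a transporter UMI and for the difference in fasting response, and with at least 4 *Th* UMIs 35, 24 and 0. These 2 settings tested 896 and 2202 genes, so their counts are not shares of the 6144 genes of the reported fits. Without the nuclei rich in *Oxt* and *Avp*, 0 genes were called with against without *Slc6a3* and 2 for the difference in fasting response; these nuclei were chosen on the counts of these genes and left out of the dopaminergic side only, which moves the values of *Oxt* and *Avp* by construction. The causes of these changes were not tested.

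Leaving out each library in turn gave 0 to 1 calls between conditions, with 1 without ad-libitum-fed library 3 and 1 without fasted library 1. Without ad-libitum-fed library 3 or 4 only 3010 or 2975 genes were tested. Against other neurons, leaving out a library gave 81 (without ad-libitum-fed library 3) to 217 calls. Against *Th* neurons without a transporter UMI it gave 24 (without ad-libitum-fed library 3) to 104, and 35 without fasted library 1. With against without *Slc6a3* it gave 0 (without ad-libitum-fed library 1 or 3) to 4, and 1 without ad-libitum-fed library 4 or fasted library 1. For the difference in fasting response it gave 0 to 1, with 0 without ad-libitum-fed library 2, 3 or 4 or fasted library 1. The difference in share ran from -0.0799 to 0.0626 percentage points without 1 library, where the design could not reach the threshold under any definition of the share. The sign changed for *Insr* between conditions (-0.04 without marked doublets), for *Avp* without the nuclei rich in *Oxt* and *Avp* (-1.66 against other neurons and 0.68 with against without *Slc6a3*, by construction), and for *C77080* (-1.48 without marked doublets, -0.35 without fasted library 1, and up to 3.33 without fasted library 2). For named genes against other neurons, 659 of 695 alternative values kept their direction and side of the threshold and 35 were no longer called. Of the others, 52 of 485 were no longer called against *Th* neurons without a transporter UMI, 22 of 59 with against without *Slc6a3* and 4 of 16 for the difference in fasting response, and 69 of 558 were newly called between conditions, 9 of 19 for *Cartpt*. The smallest adjusted p between conditions by edgeR, 0.0654 as reported, moved both ways. It was 0.974 with relative log expression normalization, 0.32 and 0.465 without ad-libitum-fed library 1 or 2, and 0.0117 without library 3. *Corin*, *Gad1* and *Avp* were among those lost without ad-libitum-fed library 3. With the replicate number as a replicate block, 23 genes were called between conditions. Only libraries 1 and 2 share numbers, and same-numbered libraries barely deviated together (correlation across genes 0.03 and 0.01). With few nuclei in ad-libitum-fed libraries 1 and 2 and both fasted libraries from 1 pool, this check cannot tell whether the numbers pair samples. The comparison with against without *Slc6a3* could not be fitted for at least 4 *Th* UMIs or for nuclei with at least 5000 UMIs. Depth limits libraries 1 and 2, where 1 UMI was worth 33.4 and 37.2 CPM.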
